A study of Mus musculus with 6 samples.

Results

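The miR-17-92 and miR-106b-25 clusters are groups of neighbouring miRNA genes that are cut from shared primary transcripts. Their guide strands were followed here through the Argonaute-bound short RNAs (R-sRNAs) of mouse brain. The members were the 9 mature miRNAs whose names stood alone in the miRNA column of the deposited table. They were mmu-miR-17-5p, mmu-miR-18a-5p, mmu-miR-19a-3p, mmu-miR-19b-3p, mmu-miR-20a-5p and mmu-miR-92a-3p of miR-17-92, and mmu-miR-106b-5p, mmu-miR-93-5p and mmu-miR-25-3p of miR-106b-25, written below without the species prefix. These were 9 of 782 mature miRNA names in the table and 9 of 689 that entered the tests. All 9 were found in all 6 samples, with 451 to 10508 reads per member and sample.

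The study asked whether the short RNAs loaded into the RNA-induced silencing complex (RISC) carry seeds that are more toxic to cells in models of Alzheimer's disease. This comparison held 3 wild-type (WT) mice and 3 mice transgenic for the tau45-230 fragment of human tau (Tau tg). Per the study's methods, the fragment was driven by the Thy 1.2 promoter, which is active mainly in neurons, the animals were 3-month-old males, and the transgenic line had been crossed into C57BL/6J. The labels name hippocampus as the source, whereas the protocol describes cortex and hippocampus combined. Argonaute complexes were pulled down from lysates with a GW182 peptide and RNA cut from a gel at 19 to 35 nt, per the labels, was sequenced (Ago-RP-Seq). The table held reads of 15 to 30 nt, and the values describe what was bound to Argonaute and not the total amount of each miRNA. In such bulk tissue, fewer cells of a type and less RNA per cell cannot be told apart.

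A miRNA guides Argonaute to mRNAs that pair with its seed, the bases near its 5′ end. The miR-17-92 cluster is known for promoting proliferation in development and in tumours, and in the brain for roles in neural progenitors and in axon growth. Its members fall into 4 seed families that the miR-106b-25 cluster shares in part. The miR-17 family is known to repress the cell cycle inhibitor Cdkn1a, and the miR-92 family and other members the pro-apoptotic gene Bcl2l11.

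Members were grouped into families by the seed of the annotated sequence, and sums over family members used all reads with the members' names. Seed totals used all reads with that seed, whatever their name. The mature sequences below show how the 9 members fall into these 4 families. They are from RefSeq, written 5′ to 3′, with bases 2 to 8 in capitals.
miR-17-5p: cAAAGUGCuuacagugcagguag
miR-20a-5p: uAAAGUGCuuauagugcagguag
miR-106b-5p: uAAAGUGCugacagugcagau
miR-93-5p: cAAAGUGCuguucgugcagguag
miR-18a-5p: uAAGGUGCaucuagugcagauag
miR-19a-3p: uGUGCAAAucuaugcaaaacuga
miR-19b-3p: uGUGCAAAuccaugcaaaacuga
miR-92a-3p: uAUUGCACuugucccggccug
miR-25-3p: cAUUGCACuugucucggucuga
The first 4 formed the miR-17 family with the 6mer seed AAAGUG at bases 2 to 7, miR-18a-5p had the seed AAGGUG, the miR-19 pair GUGCAA, and miR-92a-3p and miR-25-3p AUUGCA. Relatives differed at few positions, counted from 1 at the 5′ end. MiR-19a-3p and miR-19b-3p differed by U11C alone, miR-17-5p and miR-20a-5p by C1U and C12U, and miR-92a-3p and miR-25-3p, over the 21 bases that both have, by U1C, C14U and C18U. A read was therefore assigned within a family by few bases, 1 in the miR-19 pair. Single base errors at such positions could move reads between members.

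The 6 hairpins of miR-17-92 lay within 836 bases at chr14:115043671-115044506 on the plus strand of GRCm38, in an exon of the long non-coding RNA gene Mir17hg in GENCODE M21. The 3 hairpins of miR-106b-25 lay within 498 bases at chr5:138165321-138165818 on the minus strand, inside Mcm7, which encodes a subunit of the replicative helicase. The miR-106b-5p sequence at chr5:138165787-138165807 was intronic in both Mcm7 transcripts that span it. The miR-93-5p sequence at chr5:138165574-138165596 and the miR-25-3p sequence at chr5:138165332-138165353 were each exonic in 1 of 3 spanning transcripts and intronic in the others. Identical mature sequences of miR-92a-3p and miR-19b-3p are also encoded on chromosome X, at chrX:52741854-52741874 and chrX:52741991-52742013 on the minus strand. Reads of these 2 members could thus come from either place, and the miRNA column held no separate value for the copies.

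Depth differed between samples, from 998248 recovered reads in WT 3 to 6879551 in Tau tg 1, and 3 reads were worth 0.427 to 2.75 RPM, the read count scaled to library size. Reads with a mature miRNA name made up 82.7% to 92.4% of the reads in the table. The 4 neuronal marker miRNAs summed to between 140317 and 158895 RPM, a range of 1.13-fold, and all 4 were present in all samples, but they varied more singly. MiR-124-3p lay between 47769 RPM in Tau tg 3 and 90279 RPM in WT 1, miR-128-3p between 14221 RPM in WT 1 and 42415 RPM in WT 3, and miR-138-5p between 6556 and 12043 RPM. MiR-9-5p was at 29427 to 37677 RPM in the WT mice and at 44565 to 48005 RPM in Tau tg mice, without overlap (limma, unadjusted p = 0.114). Markers of other cell types were also detected. The oligodendrocyte pair spanned 3723 to 7787 RPM, 5 microglia and leukocyte markers 1864 to 2768 RPM, 4 red blood cell markers 732 to 1300.2 RPM, the endothelial pair 4286 to 10575 RPM, 4 choroid plexus markers 1880 to 9418 RPM and 4 pituitary markers 1827 to 6313 RPM. In each of these lists the summed levels of the groups overlapped, and every marker was above 0 in at least 1 sample. Some sums came mostly from 1 marker, miR-150-5p (1542 to 2378 RPM) for microglia and leukocytes and miR-204-5p (1788 to 8110 RPM) for choroid plexus. Other markers were low, with miR-155-5p at 0 to 10.3 RPM. In the pituitary list miR-200a-3p and miR-141-3p held most of the sum, and miR-375-3p was at 41.2 to 89.2 RPM.

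No difference between WT and Tau tg brains in the 9 members exceeded the spread between mice. Together they made up 0.897% to 1.88% of all reads in the table, and the sums reached 13585 ± 4279 RPM for the WT group and 12863 ± 3712 RPM for the Tau tg group (SD, n = 3 each). The miR-17-92 members summed to 5310, 10197 and 9630 RPM in WT 1, 2 and 3, and to 5153, 6888 and 9915 RPM in Tau tg 1, 2 and 3. The miR-106b-25 members summed to 3547, 4511 and 7560 RPM in the WT mice and to 3632, 6873 and 6129 RPM in Tau tg mice. For both clusters the groups overlapped and the lowest sample of each genotype was its first replicate.

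**Figure D1:**
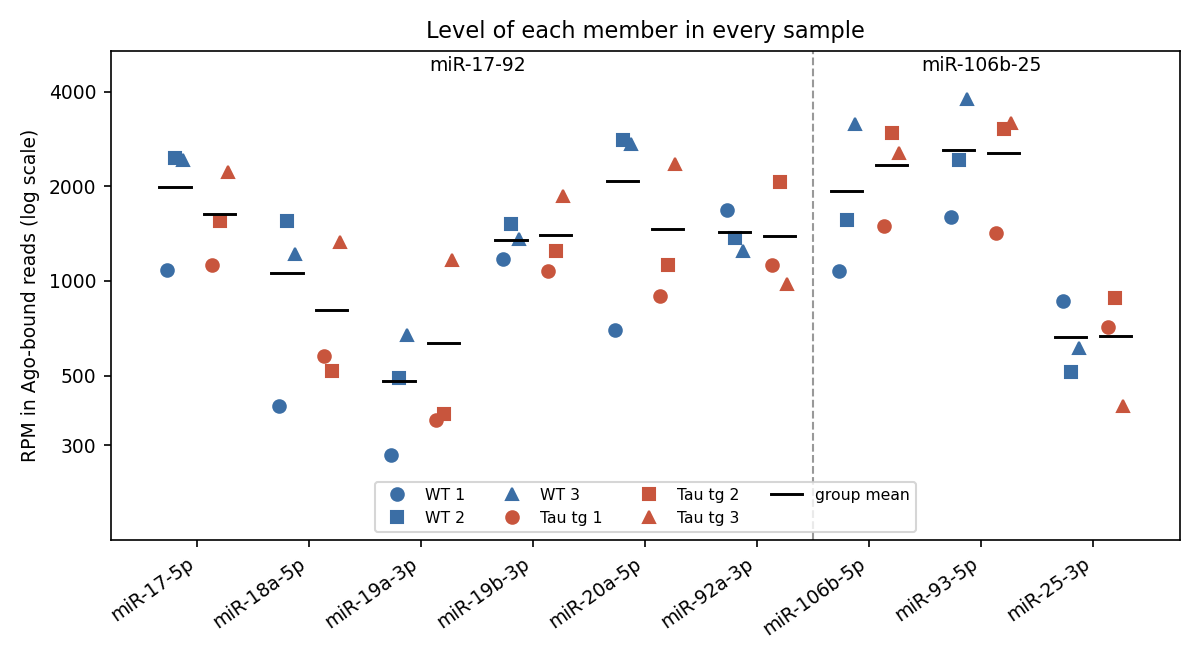
RPM of the 9 members in every sample on a log scale, with 1 point per mouse (blue, WT; red, Tau tg) and a black line at each group mean of 3 samples. The groups overlap for all members, and the WT values of miR-20a-5p span 696 to 2805 RPM.

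In the miR-17 family, miR-93-5p was the most abundant member of either cluster, 55th of all miRNAs by its mean level. It stood at 1602, 2433 and 3784 RPM in the WT mice and at 1421, 3037 and 3179 RPM in Tau tg mice. MiR-106b-5p followed with 1078, 1567 and 3166 RPM in the WT mice and 1495, 2955 and 2550 RPM in Tau tg mice. These 2 members of miR-106b-25 were low in WT 1 and Tau tg 1 and high in WT 3, with Tau tg 2 and Tau tg 3 between the WT extremes.

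MiR-17-5p, the first hairpin of its cluster, was at 1081, 2465 and 2426 RPM in the WT mice and at 1121, 1551 and 2219 RPM in Tau tg mice. MiR-20a-5p was at 696, 2805 and 2719 RPM in the WT mice and at 898, 1127 and 2351 RPM in Tau tg mice. These 2 members were again lowest in WT 1 and Tau tg 1, but here Tau tg 2 lay below WT 2, whereas it lay above WT 2 for miR-93-5p and miR-106b-5p. MiR-18a-5p, which differs from the miR-17 family by 1 seed base, was also lowest in WT 1, with 400.5, 1554 and 1214 RPM in the WT mice and 577, 518 and 1328 RPM in Tau tg mice.

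In the miR-19 family, miR-19a-3p was the least abundant member, with 279, 492 and 674 RPM in the WT mice and 362, 377 and 1167 RPM in Tau tg mice. MiR-19b-3p was the steadiest, with 1178, 1514 and 1356 RPM in the WT mice and 1072, 1248 and 1869 RPM in Tau tg mice. Both were highest in Tau tg 3. The ratio of miR-19b-3p to miR-19a-3p ranged from 1.60 in Tau tg 3 to 4.23 in WT 1.

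The miR-92 family members were ordered differently over the samples. MiR-92a-3p, the last hairpin of miR-17-92, was at 1676, 1366 and 1241 RPM in the WT mice and at 1122, 2067 and 981 RPM in Tau tg mice. MiR-25-3p of the other cluster was at 866, 512 and 610.0 RPM in the WT mice and at 716, 881 and 399 RPM in Tau tg mice. Both were lowest in Tau tg 3, where the miR-19 pair was highest, and high in WT 1, where the miR-17 family sum was lowest.

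**Figure D2:**
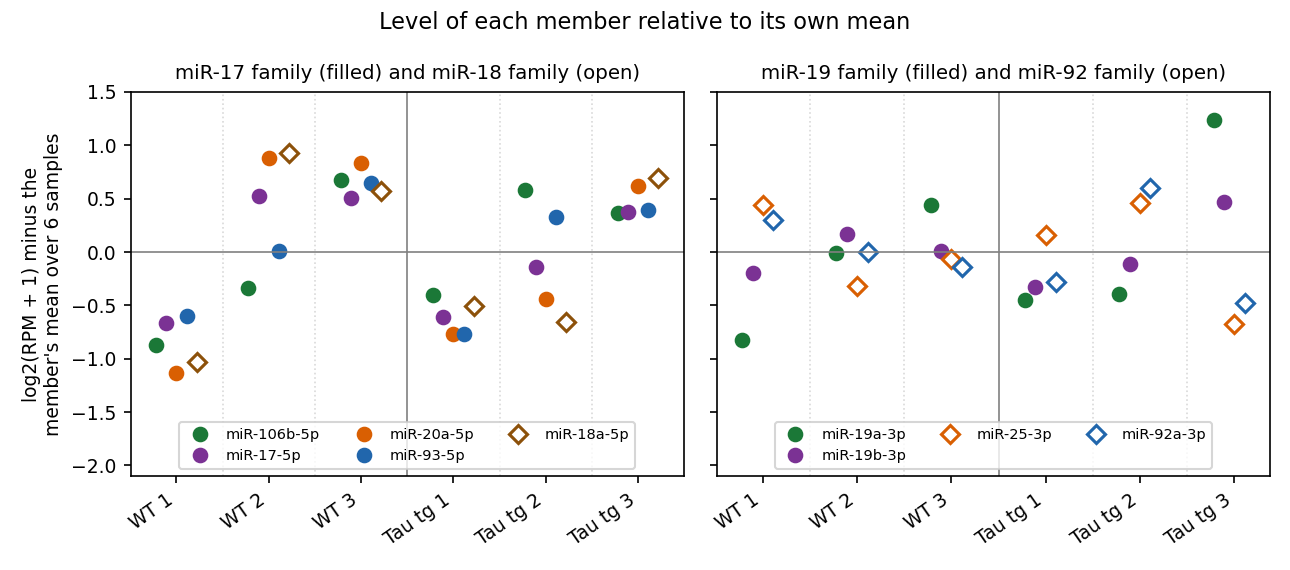
Each member's log2(RPM + 1) in each sample minus its own mean over the 6 samples, with the miR-17 and miR-18 families at left and the miR-19 and miR-92 families at right. In Tau tg 3 the left-hand members lie above 0, while miR-92a-3p and miR-25-3p lie at -0.48 and -0.68.

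By mean level over the 6 samples the order was miR-93-5p, miR-106b-5p, miR-17-5p, miR-20a-5p, miR-92a-3p, miR-19b-3p, miR-18a-5p, miR-25-3p and miR-19a-3p, from 2576 to 558 RPM. Every pair of neighbours in this order overlapped in the range of its samples. The highest sample exceeded the lowest by 1.74-fold for miR-19b-3p and by 4.19-fold for miR-19a-3p, with a median over the members of 2.66-fold. Over the 276 miRNAs of at least 100 RPM on average, this median was 2.31-fold, with quartiles at 1.79 and 3.41.

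The 95% confidence intervals give the range of differences that the values of these 6 mice did not exclude. With limma on log2(RPM + 1), Tau tg over WT, the log2 fold changes were 0.36 (SE 0.40, interval -0.49 to 1.20) for miR-106b-5p, the highest, and -0.39 (SE 0.49, interval -1.43 to 0.66) for miR-20a-5p, the lowest. The other members lay at -0.31 for miR-18a-5p, -0.25 for miR-17-5p, -0.11 for miR-92a-3p, -0.03 for both miR-93-5p and miR-25-3p, 0.02 for miR-19b-3p and 0.26 for miR-19a-3p. All 9 intervals contained 0, and adjusted p-values (limma, Benjamini-Hochberg over 689 miRNAs) ranged from 0.896 to 0.992.

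At an unadjusted p under 0.05, limma called 0 of 9 members, against 25 of 689 miRNAs or 3.63% of all tested, and after adjustment it called 0 of 689, or 0%. On the recovered reads edgeR and DESeq2 also called 0 of 9 members at an unadjusted p under 0.05, against 28 and 37 of all miRNAs, and after adjustment they called 0 and 5 miRNAs, none of them a member. The log2 fold changes were above 0 for 3 members and below 0 for 6, with a median of -0.03, whereas the median of all miRNAs was 0.25. Relative to that median, miR-106b-5p stood at 0.11, miR-19a-3p at 0.02, and the other 7 members between -0.63 and -0.23. Under median-of-ratios scaling the median of all miRNAs was 0.10, and the sign of miR-19b-3p turned. In the levels themselves, 0 of 9 members had groups that did not overlap, against 9.53% of 472 miRNAs above 0 in every sample. The sizes of these differences changed with single samples left out. MiR-20a-5p went to -1.05 without WT 1, with an unadjusted p of 0.0324 (limma, adjusted p = 0.634), to -0.79 without Tau tg 3, and to -0.043, -0.066, -0.10 and -0.26 without WT 2, WT 3, Tau tg 1 and Tau tg 2. MiR-106b-5p lay between 0.0095 without WT 1 and 0.79 without WT 3 (limma, unadjusted p = 0.054, adjusted p = 0.923), and miR-17-5p between -0.64 without WT 1 and -0.0061 without Tau tg 1.

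**Figure D3:**
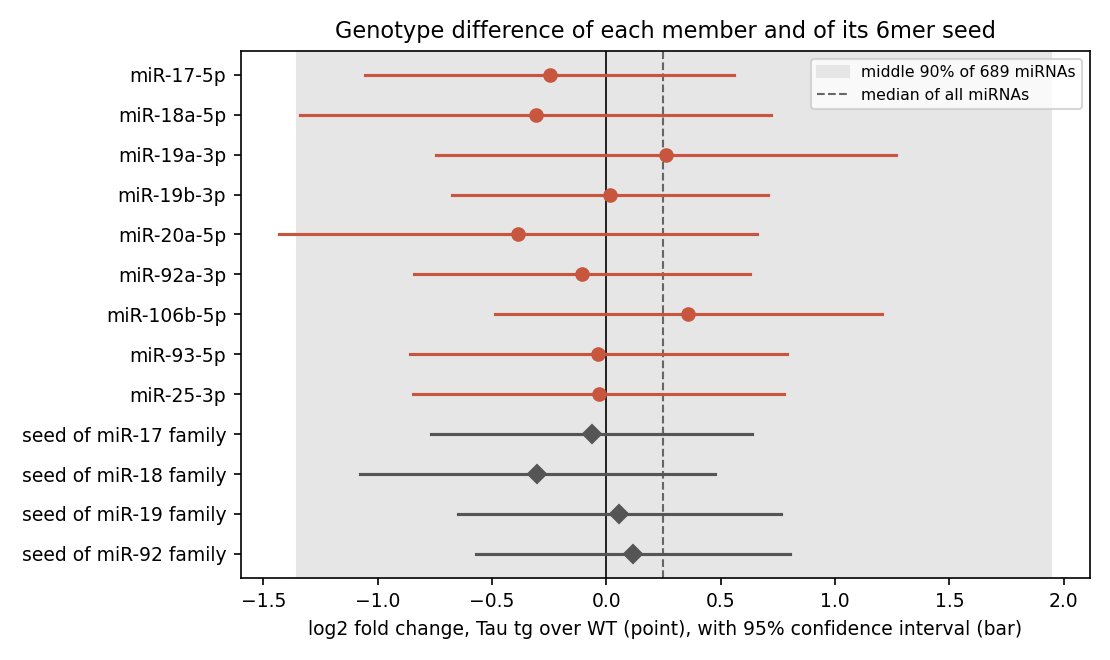
Log2 fold change of Tau tg over WT with its 95% confidence interval for each member (red circles) and for the 6mer seed of each family (grey diamonds). All intervals cross 0 and the points lie between -0.39 and 0.36, inside the grey band that holds the middle 90% of 689 miRNAs (-1.35 to 1.94).

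Members of 1 cluster did not keep a fixed ratio to each other in the RISC. The ratio of miR-20a-5p to miR-92a-3p, both with a hairpin in miR-17-92, was 0.415, 2.05 and 2.19 in WT and 0.80, 0.545 and 2.40 in Tau tg, a range of 5.77-fold. Reads of miR-92a-3p can also come from its copy on chromosome X, so this ratio may not be of 1 transcript alone. The ratio of miR-93-5p to miR-25-3p of the other cluster was 1.85, 4.76 and 6.20 in WT and 1.99, 3.45 and 7.96 in Tau tg. In both clusters the ratio of the miR-17 family member to its miR-92 family partner was lowest in WT 1 and highest in Tau tg 3, and the groups overlapped. Within the miR-17 family the ratios were narrower, 0.879 to 1.55 for miR-17-5p over miR-20a-5p and 0.950 to 1.55 for miR-93-5p over miR-106b-5p.

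The ratio of the miR-17 family members to the miR-92 family members was 1.75, 4.94 and 6.53 in WT and 2.69, 2.94 and 7.46 in Tau tg, so that the spread within each genotype exceeded the difference between the means of 4.41 and 4.36. The 2 clusters moved less against each other, with ratios of miR-17-92 to miR-106b-25 of 1.5, 2.26 and 1.27 in WT and 1.42, 1.0 and 1.62 in Tau tg. MiR-92a-3p took between 9.90% and 31.6% of the reads of the miR-17-92 members, and miR-25-3p between 6.52% and 24.4% of those of the miR-106b-25 members, the widest ranges in their clusters.

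Some values of the libraries moved with this pattern, and their part in it was not tested. WT 1 and Tau tg 1, where the miR-17 family sum was lowest, had the highest shares of reads with a miRNA name, 90.4% and 92.4%. The content of G and C followed the pattern in part. Of the 21 bases of miR-92a-3p 12 are G or C, against 9 of 23 in miR-20a-5p, but miR-93-5p has 12 of 23 and its partner miR-25-3p 11 of 22. Among 75 miRNAs with the most G and C, the median deviation from the mean level was 0.23, -0.08 and -0.32 in WT and 0.19, 0.17 and 0.07 in Tau tg on the log2 scale, and so highest in WT 1 and lowest in WT 3, whereas in Tau tg 3, where miR-92a-3p and miR-25-3p were lowest, it was above 0. The neuronal marker miR-128-3p was, like the miR-17 family sum, lowest in WT 1, but the neuronal marker miR-124-3p was highest there. Of the other neuronal markers, miR-9-5p was lowest in WT 2 and miR-138-5p in Tau tg 2.

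Most reads with the miR-17, miR-18 and miR-19 family seeds came from the members, but the miR-92 family seed was shared. Over all reads, AAAGUG stood 25th among 4051 6mer seeds by mean level, AUUGCA 34th, GUGCAA 53rd and AAGGUG 94th. The members supplied 98.7% of the AAAGUG reads, 96.1% of GUGCAA, 95.6% of AAGGUG and 47.0% of AUUGCA. The largest carrier of AUUGCA was miR-92b-3p, which is encoded apart from both clusters, with 41.9% of its reads, ahead of miR-92a-3p with 31.8%, miR-25-3p with 15.2% and miR-32-5p with 9.45%.

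The 2 most abundant carriers differed over 21 compared bases by U10C and G21C, outside the seed.
miR-92a-3p: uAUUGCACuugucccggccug
miR-92b-3p: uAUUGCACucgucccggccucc
MiR-92b-3p was at 2224, 1349 and 1213 RPM in the WT mice and at 1470, 3078 and 1757 RPM in Tau tg mice (limma log2 fold change 0.38, SE 0.36, adjusted p = 0.896). Like miR-92a-3p it was highest in Tau tg 2 and next highest in WT 1. MiR-32-5p was at 299, 843 and 239 RPM in the WT mice and 539, 229 and 284 RPM in Tau tg mice, with its highest value in WT 2.

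**Figure D4:**
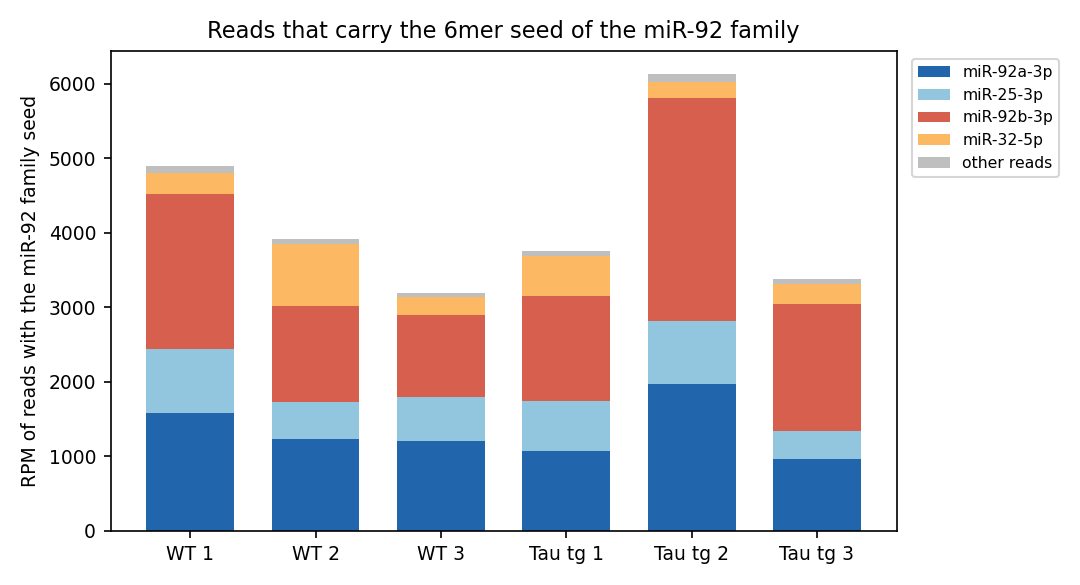
RPM of all reads with the 6mer seed AUUGCA in every sample, stacked by the miRNA that carries it. The 2 members in blue make up 47.0% of the reads on average, and miR-92b-3p in red makes up 32.8% to 50.2%.

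No difference between the groups was found for the 4 seeds. All reads with AAAGUG summed to 4381, 9138 and 11938 RPM in the WT mice and 4828, 8614 and 10063 RPM in Tau tg mice, and those with AUUGCA to 4890, 3912 and 3188 RPM in the WT mice and 3748, 6136 and 3380 RPM in Tau tg mice. The log2 fold changes by limma were -0.06 for AAAGUG (interval -0.77 to 0.64), -0.30 for AAGGUG (-1.08 to 0.47), 0.06 for GUGCAA (-0.65 to 0.76) and 0.12 for AUUGCA (-0.57 to 0.81), and adjusted p-values ranged from 0.991 to 0.992. Of the 4 seeds, 0 were called at an unadjusted p under 0.05, against 4.31% of 3987 seeds, and 0 after adjustment, against 0.125%. Leaving out WT 1 moved AAGGUG to -0.89 with an unadjusted p of 0.0384 (limma, adjusted p = 0.75).

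The members of the paralogous cluster on the X chromosome that can be told apart by sequence were low, while its copies of miR-92a-3p and miR-19b-3p cannot be separated from the members. MiR-106a-5p, which differs from miR-17-5p by U10A alone, was at 0 to 2.75 RPM, at most 5 reads in any sample. MiR-20b-5p was at 2.56 to 20.9 RPM and miR-363-3p at 7.34 to 21.5 RPM. These levels were far below those of their relatives miR-17-5p, miR-20a-5p and miR-92a-3p, the lowest of which was 696 RPM. The names miR-18b-5p and miR-367-3p were looked for, but no read carried either name alone.

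A hairpin gives a 5p and a 3p arm, and the strand listed as a member made up most reads in the 8 members whose other arm was in the table. The member's share of the reads of both arms was 93.4% to 100% for miR-17-5p, miR-18a-5p, miR-19b-3p, miR-20a-5p, miR-93-5p and miR-25-3p. It was also 97.4% to 100% for miR-19a-3p in 5 samples, while WT 2 stood apart at 83.6%, with miR-19a-5p at 96.2 RPM. The other arms of miR-92a-3p, miR-92a-1-5p and miR-92a-2-5p, were looked for, but no read carried either name alone.

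MiR-106b was the pair whose groups did not overlap. MiR-106b-5p made up 82.7%, 90.4% and 90.4% of the 2 arms in WT, and 92.6%, 95.7% and 96.5% in Tau tg. The passenger strand miR-106b-3p was at 225, 166 and 336 RPM in the WT mice and at 119, 133 and 92.5 RPM in Tau tg mice, so all Tau tg samples were below all WT samples. Its log2 fold change was -1.03 (SE 0.46, interval -2.01 to -0.04), with an unadjusted p of 0.0416 and an adjusted p of 0.896 by limma. Among the 7 members whose 2 arms have matching names this was 1, against 12.9% of 178 hairpins with both arms named. Without WT 1 the difference in share went from 7.08 to 4.53 percentage points, and the unadjusted limma p of miR-106b-3p ranged from 0.0212 to 0.164 with single samples left out, above 0.05 without WT 1 (0.0628), WT 3 (0.164), Tau tg 1 (0.0724) or Tau tg 3 (0.114). It was also 0.0593 by limma without the trend and 0.168 with only reads at the annotated 5′ end. On the recovered reads the unadjusted p was lower, 0.0188 by edgeR and 0.00712 by DESeq2, with adjusted p-values of 0.901 and 0.317.

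The members differed in where their reads ended. Reads of the members were 18 to 26 nt long, in 627 sequences. The most abundant reads of 3 members illustrate this, with bases 2 to 8 in capitals and T as in the deposited reads.
miR-93-5p, 74.0% of its reads: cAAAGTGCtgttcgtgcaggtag
miR-92a-3p, 75.3% of its reads: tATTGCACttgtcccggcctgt
miR-106b-5p, 41.9% of its reads: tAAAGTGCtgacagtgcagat
miR-106b-5p, 32.5% of its reads: tAAAGTGCtgacagtgcagata
The leading miR-93-5p read was the annotated 23 nt form. The leading miR-92a-3p read was 22 nt long, 1 templated base longer than the RefSeq sequence, which itself supplied only 1.86% to 4.30% of its reads. MiR-106b-5p was split between 21 nt and 22 nt forms that differ by 1 templated base.

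Shortened 3′ ends were common in the miR-19 pair. Templated reads that ended before the annotated end made up 40.7% to 69.1% of miR-19b-3p, 23.0% to 61.9% of miR-19a-3p and 29.2% to 48.0% of miR-18a-5p, but 7.09% to 23.1% of miR-93-5p and 0.60% to 3.04% of miR-92a-3p. Mean read lengths lay between 21.3 nt for miR-106b-5p and 22.8 nt for miR-93-5p. They overlapped between the groups in all members, so that 0 of 9 had groups apart, against 9.78% of 276 miRNAs.

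**Figure D5:**
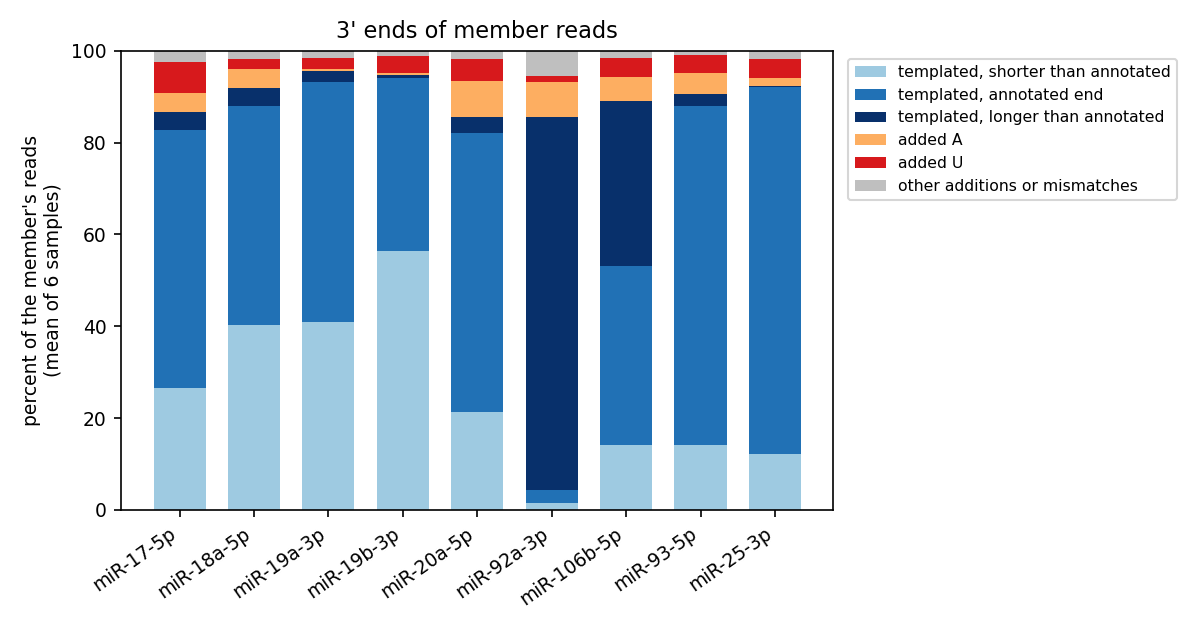
Percent of each member's reads by the kind of 3′ end, as the mean of 6 samples, from exact matches to the RefSeq hairpins. Longer templated ends in dark blue make up 81.4% of miR-92a-3p and 35.8% of miR-106b-5p, and shorter ends in pale blue 56.4% of miR-19b-3p.

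Added bases were a minor part of the reads. Reads with U added to a templated end made up 4.33%, 5.31% and 6.01% of miR-17-5p in WT and 7.30%, 11.1% and 6.10% in Tau tg, and 0.70%, 1.66% and 0.38% of miR-18a-5p in WT and 3.67%, 4.36% and 2.74% in Tau tg. These were the 2 of 9 members whose groups did not overlap in added U, against 7.86% of 229 miRNAs with a hairpin. In miR-18a-5p this rests in part on 1 read, shown further below among the sequences tested singly. It was at 0 RPM in all WT samples and at 3.98, 21.7 and 20.5 RPM in Tau tg. In Tau tg 2 it made up nearly all of the added U. For added A, miR-25-3p, with 0.40% to 0.97% in WT and 2.66% to 3.18% in Tau tg, and miR-19b-3p, with at most 0.85% in any sample, were 2 of 9, against 8.3% of these miRNAs. The share of the most abundant read did not overlap in 1 of 9, miR-17-5p, with 53.9% to 66.0% in WT and 48.6% to 52.2% in Tau tg, against 9.06% of 276 miRNAs. These shares were described without a test, and the members were looked at in several measures.

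The seed itself was kept in nearly all reads. The annotated 6mer seed was present in 89.9% to 99.7% of the reads of each member and sample. The groups did not overlap in 3 of 9 members, against 11.6% of 276 miRNAs. These 3 were miR-106b-5p, with 99.5% to 99.7% in WT and 97.6% to 98.2% in Tau tg, miR-25-3p, with 96.1% to 98.8% and 94.3% to 95.8%, and miR-19b-3p, with 98.7% to 99.0% and 96.1% to 98.4%. In all 3 the Tau tg samples were lower. Among members whose groups overlapped, Tau tg minus WT was 2.24, 2.11, 1.15 and 0.08 percentage points for miR-92a-3p, miR-18a-5p, miR-17-5p and miR-93-5p. It was -0.87 and -1.01 for miR-19a-3p and miR-20a-5p.

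Reads with a shifted start carry another seed, and miR-17-5p, miR-19a-3p and miR-92a-3p held the most. For miR-17-5p the seed CAAAGU, mostly from reads that begin 1 base upstream, made up 1.67% to 6.95% of the reads. The capitals again mark bases 2 to 8 of each read.
miR-17-5p, annotated start: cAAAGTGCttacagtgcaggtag
miR-17-5p, shifted start: tCAAAGTGcttacagtgcaggt
For miR-92a-3p the seed UUGCAC, mostly from reads that begin 1 base downstream, made up 5.14%, 6.15% and 1.77% in WT and 2.17%, 3.60% and 1.63% in Tau tg. In miR-19a-3p the upstream seed UGUGCA made up 1.22% to 5.21%. In miR-20a-5p the downstream seed AAGUGC reached 5.25% in WT 1 and at most 2.28% elsewhere.

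Of the 627 member sequences, 240 were abundant enough to be tested singly. By limma, 5 had an unadjusted p under 0.05, against 2.23% of 36070 sequences, and 0 passed after adjustment, against 0.0277% (lowest adjusted p = 0.584). Those 5 are named here after their values were seen, with the 2 that have the lowest p shown.
miR-18a-5p with T in place of the last base: tAAGGTGCatctagtgcagatat
miR-19b-3p beginning 1 base downstream: gTGCAAATccatgcaaaactga
The miR-18a-5p read was at 0 in all WT samples, where 3 reads would have been 1.41 to 2.75 RPM, and at 3.98, 21.7 and 20.5 RPM in Tau tg mice. The miR-19b-3p read was at 1.87, 0.678 and 0 RPM in the WT mice and at 4.55, 13.4 and 11.5 RPM in Tau tg mice. For both reads the groups did not overlap, at levels of at most 21.7 RPM. They were chosen for the lowest p, so the lack of overlap follows in part from the choice. The miR-18a-5p read was already counted above in the added U of that member. The miR-19b-3p read was counted above among reads without the annotated seed. Neither is a separate observation from those shares. The share of all sequences without overlap was not counted. The other 3 were a 21 nt and a 20 nt form of miR-19a-3p, with log2 fold changes of 1.49 and -2.0, and an 18 nt form of miR-19b-3p at 2.55.

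The study scores each 6mer seed by the viability of cells that receive a short RNA with that seed, as a percentage averaged over 3 murine cell lines, and a low value means a toxic seed. The seeds of the members scored high, with 86.2% for AUUGCA, 84.4% for AAAGUG, 75.8% for GUGCAA and 73.6% for AAGGUG. Weighted by level, the mean viability of the member reads was 82.5%, 81.6% and 82.5% in WT and 82.1%, 82.9% and 81.7% in Tau tg, while that of all reads was 57.2% to 59.4%. The genotypes differed by -0.01 percentage points in the members, less than the SD within the groups of 0.52 and 0.64.

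Member reads with a seed under 50% viability made up 0.079% to 0.31% of the members, against 23.7% to 25.5% of all reads. Shifted starts moved the viability in both directions. Below the seeds of their members, CAAAGU scores 55.1%, UUGCAC 62.6%, UGUGCA 70.6% and AAGUGC 81.9%. Above them, UGCAAA of the miR-19 pair scores 89% and UGCUUA of miR-17-5p 108.5% of control. Of all reads with a seed of at least 70% viability, the 9 members supplied 3.56%, 5.34% and 5.88% in WT and 3.42%, 5.40% and 5.99% in Tau tg. Here too WT 1 and Tau tg 1 were the lowest samples of their groups and the groups overlapped.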

How the data were processed

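Argonaute-bound short RNAs of 3 WT and 3 Tau tg mouse brains were measured by Ago-RP-Seq. The authors trimmed the reads (Trim Galore is listed, version not given in the sources used here), collapsed them to unique sequences, removed rare reads, matched them by BLAST to lists of short RNAs (the annotation names mouse mm9) and deposited RPM values per sequence with the 6mer seed and its viability score, a percentage of control. Scaling came before some sequences were removed, so the columns no longer sum to the full scale. RPM values were whole multiples of 1 read for 100% of 138375 values above 0 (tolerance 0.05 reads), giving 998248 to 6879551 reads per sample.

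RPM was summed by miRNA and by seed (positions 2 to 7). The main test was limma 3.58.1 (R 4.3.3) fitted on log2(RPM + 1) with its mean-variance trend, features of at least 1 RPM on average, two-sided, Benjamini-Hochberg adjusted over 689 miRNAs, 3987 seeds or 36070 sequences. Fold changes on this scale understate the change of low features. Read composition used features of at least 100 RPM. The fit was checked on simulated data. EdgeR 4.0.16 and DESeq2 1.42.0 on the recovered reads were alternatives, beside other pseudocounts, filters, scalings, read lengths and left-out samples. P-values and confidence intervals rest on the spread between these mice, with each variance drawn by limma towards that of features of like level. Without the trend the SE rose from 0.355 to 0.807 for AAAGUG and from 0.492 to 0.721 for miR-20a-5p. Limits from 3 reads cover counting error only.

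The 9 members were rows with exactly that miRNA name. Named beside them, by rule, were their seeds, their 1st and 2nd reads, reads with a shifted start, the X-chromosome paralogs, other miRNAs with their seeds, the other arms and the 3 miRNAs most like each cluster sum. The members and lists were chosen with earlier results of these data known. The deposited sum column and second annotation column were not used as values. Positions are from GENCODE M21 and the RefSeq table of GRCm38.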

Additional observations from a re-analysis of the deposited data

How the results depend on the processing

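No member and no member seed passed an adjusted p of 0.05 under any alternative run. Of 108 member fold changes under 12 alternatives other than leaving out a sample, 103 kept their sign. The 5 that turned were miR-19b-3p at -0.15 (median-of-ratios scaling), -0.080 (edgeR), -0.12 (DESeq2) and -0.0080 (only reads at the annotated 5′ end), and miR-25-3p at 0.035 (quantile normalization). Among 48 seed values 6 turned: AAAGUG to 0.20 (median-of-ratios), 0.23 (edgeR) and 0.14 (DESeq2), AAGGUG to 0.021 (edgeR), and GUGCAA to -0.011 and AUUGCA to -0.13 (quantile). Leaving out single samples turned 12 of 54 and 8 of 24, with ranges of -0.90 to 0.076 for miR-18a-5p, -0.29 to 0.55 for miR-19a-3p, -0.21 to 0.19 for miR-19b-3p, -0.43 to 0.10 for miR-92a-3p, -0.34 to 0.34 for miR-93-5p, -0.27 to 0.30 for miR-25-3p, -0.48 to 0.25 for AAAGUG, -0.89 to 0.12 for AAGGUG, -0.28 to 0.26 for GUGCAA and -0.15 to 0.29 for AUUGCA. The causes were not tested.

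Counts at an unadjusted p under 0.05 went, with single samples left out, from 18 to 50 for miRNAs (25 with all samples; 50 without WT 1), from 105 to 232 for seeds (172) and from 531 to 942 for sequences (803). With only miRNA reads 62 seeds passed, as fewer seeds were tested. For sequences the counts were 429 with a pseudocount of 5, 167 with at least 10 RPM and 2564 by edgeR. Adjusted calls were 5 miRNAs by DESeq2 and 0 to 1 with samples left out. For seeds (5) they were 3 with a pseudocount of 0.1, 3 under median-of-ratios, 0 without the trend, 2 by edgeR, 10 by DESeq2, 0 with only miRNA reads and 0 to 6 with samples left out. For sequences (10) they were 0 with a pseudocount of 5, 0 with at least 10 RPM, 49 by edgeR and 0 to 17 with samples left out. Member calls at an unadjusted p went from 0 to 1 of 9 members and 0 to 1 of 4 seeds with samples left out, in both cases without WT 1. The 5 member sequences became 1 with a pseudocount of 5, 0 with at least 10 RPM, 3 under median-of-ratios and 2 to 9 with samples left out.

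The replicate numbers did not pair the samples over all miRNAs of at least 1 RPM on average. There, deviations of samples with the same number correlated at -0.002, -0.069 and 0.041. For the members, a replicate block lowered every SE, from 0.388 to 0.265 for miR-93-5p and from 0.382 to 0.354 for miR-25-3p. It called 0 of 9 members at an unadjusted p under 0.05 (limma). With a replicate block, 22 miRNAs, 188 seeds and 809 sequences passed an unadjusted p of 0.05, and 22 sequences rather than 10 passed after adjustment. The unadjusted p of miR-106b-3p was then 0.0544. The 7 summed levels moved by less than the spread between replicates under all 4 alternatives and with each sample left out, but some signs turned. For example, the log2 ratio of the group means of the miR-106b-25 sum (0.091) became -0.097 under median-of-ratios, -0.028 as a share of miRNA reads and -0.12 without WT 1, and that of all members (-0.079) became 0.13 without WT 3 or Tau tg 1. Reads without a miRNA name that begin like a member were added as an alternative chosen after seeing the data, as were left-out samples for arm shares and viability. No read listed a member together with another miRNA, so that alternative gave no value. With 3 mice a group, intervals reached from -1.43 to 1.27 on the log2 scale for the members.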

Other observations

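The miRNAs whose levels over the 6 samples were most like the cluster sums were found by Pearson's r of log2(RPM + 1) among 264 candidates of at least 100 RPM, as a description over samples whose libraries also differ in depth. For the miR-17-92 sum they were miR-100-5p (r = 0.94), miR-130a-3p (0.92) and miR-339-5p (0.88). MiR-100-5p was at 4094, 8841 and 7684 RPM in the WT mice and at 4582, 5199 and 6499 RPM in Tau tg mice. For the miR-106b-25 sum they were miR-210-3p (0.96), miR-21a-5p (0.92) and miR-365-3p (0.89). MiR-210-3p was at 461, 587 and 1980 RPM in the WT mice and at 545, 1446 and 1811 RPM in Tau tg mice, low in WT 1, WT 2 and Tau tg 1 like its cluster sum. The 2 cluster sums had an r of 0.65 with each other.

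Reads with no miRNA name that begin with the first 15 bases of a member amounted to 0.19% to 0.73% of each member's level. The leading miR-93-5p reads also carried the name of an mRNA transcript in the deposited second annotation, and miR-93-5p lies within an exon of 1 Mcm7 transcript. Among the cell type markers, miR-200a-3p of the pituitary list was at 930.3, 2830 and 3692 RPM in the WT mice and at 906, 980.2 and 877 RPM in Tau tg mice (limma log2 fold change -1.21, unadjusted p = 0.0119). The other marker with an unadjusted p under 0.05 was miR-1298-5p of the choroid plexus list, at 90.9, 179.6 and 697 RPM in the WT mice and 972, 349 and 675 RPM in Tau tg mice (limma log2 fold change 1.44, unadjusted p = 0.0293). In the pituitary list miR-375-3p went the other way from miR-200a-3p, with 41.2 to 59.6 RPM in the WT mice and 61.3 to 89.2 RPM in Tau tg mice (limma, unadjusted p = 0.379).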
